A study of Mus musculus with 2 samples.

Results

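Alveolar myofibroblast-like (ALMF-like) cells are lung stromal cells that were chosen one by one from their own counts of unique molecular identifiers (UMIs). There are 1801 of them among 23349 cell barcodes, 1143 of 10999 in the control library and 658 of 12350 in the *Gli1 HHIPCKO* library. A member has 200 to 6000 genes and at most 10% mitochondrial UMIs, with no UMI of *Epcam* (epithelium), *Ptprc* (leukocytes) or *Higd1b* (pericytes). It has at most 1 UMI over the alveolar fibroblast genes *Inmt* and *Scube2*, and at most 1 over the muscle genes *Des* and *Actg2*. At least 4 of 11 ALMF genes had to be detected (set A: *Vsnl1*, *Car2*, *Eng*, *Ltbp2*, *Egfem1*, *Agt*, *Gucy1a1*, *Etv1*, *Cd248*, *Rerg* and *Trim67*). The number of these had to exceed the number detected of 11 ductal myofibroblast (DMF) genes (set B: *Aspn*, *Wnt5a*, *Enpp1*, *Thbs2*, *Serpine2*, *Loxl2*, *Sema3c*, *Col12a1*, *P4ha3*, *Pcsk5* and *Prss35*). Because measured values chose the members, the 29 genes of the rule are given as a description, and they are left out of all counts and rankings of genes.

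Both libraries come from lungs of mice that carried a tamoxifen-inducible Cre under *Gli1* (*Gli1creERT*) together with floxed *Hhip*. Tamoxifen was given on each of 3 days from birth to the *Gli1 HHIPCKO* mouse, the control mouse received oil on the same days, and both lungs were taken at postnatal day 14. There is 1 mouse per group, tamoxifen itself was given to 1 of them alone, and Cre could act only in cells that expressed *Gli1* around birth. Cells without the leukocyte and endothelial surface proteins CD45 and CD31 were sorted, and stromal (CD326-negative) and epithelial (CD326-positive) cells of a mouse were mixed at 3 to 1 and run as 1 library.

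Alveolar myofibroblasts are contractile stromal cells of the newborn lung that carry the platelet-derived growth factor receptor PDGFRα. They lie in the tips of the septa that divide the airspaces and make elastin there, while ductal myofibroblasts ring the alveolar ducts. HHIP binds hedgehog ligands outside the cell and so limits the signal that runs through the receptor PTCH1, the transducer SMO and the GLI transcription factors.

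The control library holds 43291709 UMIs and the *Gli1 HHIPCKO* library 52338969, with medians of 3531 and 3720 UMIs per cell. The ALMF-like cells were sequenced to like depth in both, with 3601833 and 2067368 UMIs in all, medians of 2924 and 2934.5 UMIs and 1699 and 1731 genes per cell, and median mitochondrial shares of 0.430% and 0.571%. A gene without a UMI could therefore still stand at up to 0.833 or 1.45 counts per 1000000 UMIs (CPM), the level of 3 counts. The libraries share 193 barcodes, 1.75% and 1.56% of their cells. Of the members, 29 control and 10 *Gli1 HHIPCKO* cells carry a shared barcode, and 3 of these barcodes are members in both. No doublet caller was run. The member with the most UMIs had 14923 in the control and 10797 in the *Gli1 HHIPCKO* library, 5.10 and 3.68 times the median.

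The mice also differ in sex-linked genes. *Xist*, the RNA that silences an X chromosome, had 0 UMIs in control and 622 UMIs in *Gli1 HHIPCKO* members. The Y-linked *Eif2s3y*, *Ddx3y*, *Kdm5d* and *Uty* had 240, 160, 89 and 76 UMIs in control members and 0 in *Gli1 HHIPCKO* members. Sex, tamoxifen and the deletion cannot be told apart in any comparison of the libraries. With 1 mouse per group no test was made. Values are UMIs summed over the cells of a group and given as CPM, log2 ratios are *Gli1 HHIPCKO* over control unless said otherwise, and the 95% intervals are exact and cover counting error only.

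A marker of the label that the rule did not use, *Pdgfra*, was highest in the ALMF-like cells, and other myofibroblast genes were shared with DMF-like cells. *Pdgfra*, a receptor of alveolar myofibroblasts that other fibroblasts also carry (ENSMUSG00000029231, 75152292 to 75198215 on chromosome 5 of GRCm38), stood at 1107 CPM in the control and 1195 CPM in the *Gli1 HHIPCKO* library. In the same libraries it stood at 346 and 458 CPM in DMF-like cells, chosen by the mirror rule (set B at least 4 and above set A). Alveolar fibroblast-like cells (at least 3 UMIs over *Inmt* and *Scube2*) had 527 and 746 CPM. Pericyte-like cells (at least 2 UMIs of *Higd1b*) had 178 and 179 CPM and AT2-like cells, the surfactant-making epithelium (*Epcam* and *Lamp3* detected), 52.2 and 60.3 CPM. The level in ALMF-like cells was thus the highest of the 5 groups in each library. *Tgfbi*, an extracellular matrix protein induced by TGFβ, was at 2153 and 2728 CPM in ALMF-like cells, close to the 2619 CPM of DMF-like cells in the *Gli1 HHIPCKO* library and above their 1345 CPM in the control library. Alveolar fibroblast-like cells had 31.7 and 39.6 CPM of it.

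Other myofibroblast genes were shared with DMF-like cells. *Mustn1*, a small protein of muscle and skeletal tissue, was at 3773 and 2252 CPM in ALMF-like and 3716 and 1824 CPM in DMF-like cells, and alveolar fibroblast-like cells had 37.2 and 39.6 CPM of it. *P2ry14*, a receptor for UDP-sugars, was at 544 and 408 CPM in ALMF-like and 295 and 381 CPM in DMF-like cells. *Stc1*, a secreted glycoprotein (ENSMUSG00000014813, 69029238 to 69041804 on chromosome 14 of GRCm38), set them apart, with 203 and 68.7 CPM in ALMF-like against 22.3 and 4.17 CPM in DMF-like cells. *Fgf18*, a growth factor of alveolar development, was lower in ALMF-like cells, at 38.3 and 43.0 CPM against 65.5 and 60.1 CPM. The 7 ALMF markers of the label, of which only *Pdgfra* lies outside the rule, all had UMIs in both libraries and summed to 5686 and 6303 CPM, against 2242 and 3002 CPM in DMF-like and 4111 and 3866 CPM in pericyte-like cells. As a description of the rule, set A summed to 6779 and 7525 CPM and set B to 2392 and 3370.0 CPM in members, while DMF-like cells had 2458 and 3178 CPM of set A and 6935 and 8316 CPM of set B. Pericyte-like cells had more of set A than the members, 9916 and 10621 CPM, with medians of 6 and 5 set A genes detected, so set A alone does not set members apart from pericytes. The 7 genes of the exclusions summed to 122 and 138 CPM in members, mostly *Des*.

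**Figure D1:**
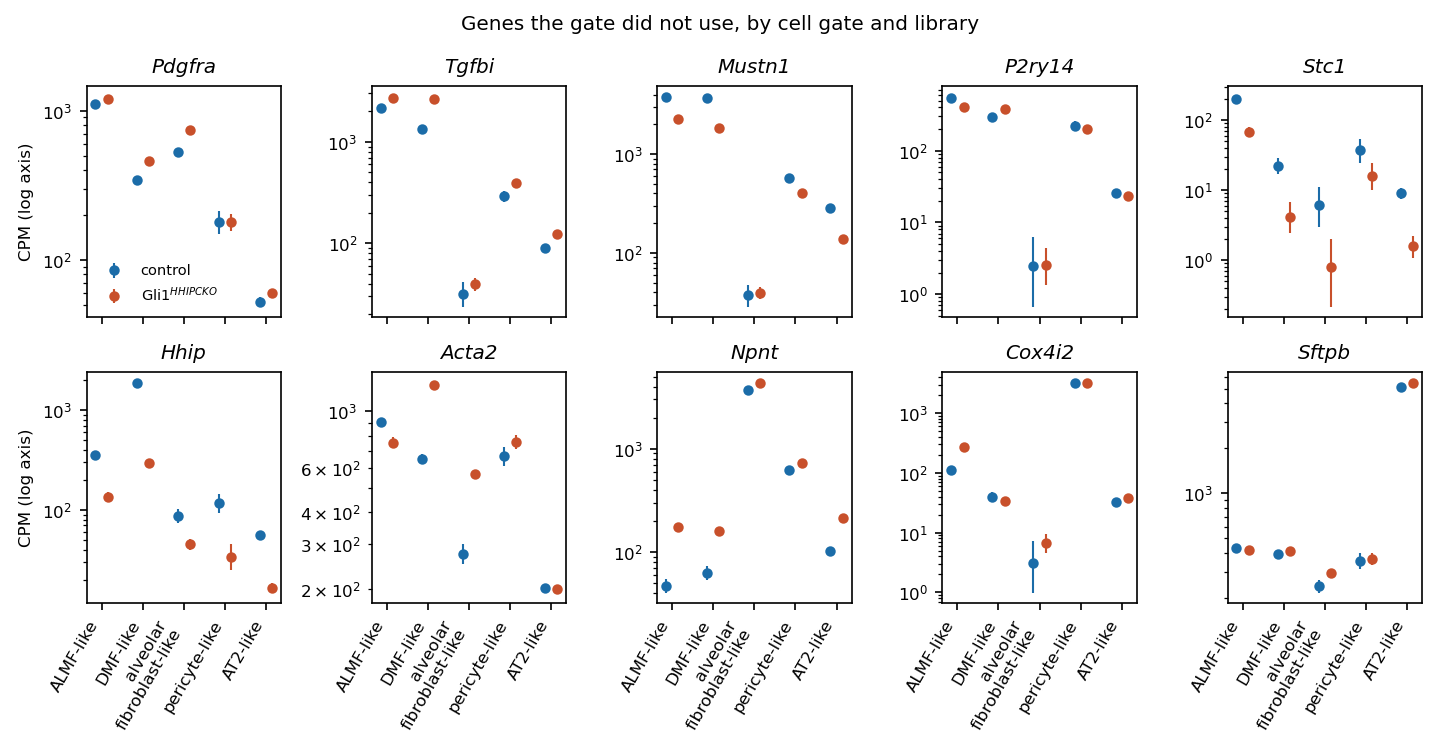
Levels of 10 genes that the rule did not use, in CPM on a log axis, in ALMF-like, DMF-like, alveolar fibroblast-like, pericyte-like and AT2-like cells of the control and *Gli1 HHIPCKO* libraries; bars are exact 95% Poisson intervals. *Pdgfra* was highest in ALMF-like cells of both libraries, at 1107 and 1195 CPM.

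Not all members carried only myofibroblast genes. Of the control members, 89 (7.79%, 95% interval 6.30 to 9.49) had at least 2 UMIs over the pericyte genes *Cspg4*, *Notch3*, *Cox4i2* and *Ndufa4l2*. In the *Gli1 HHIPCKO* library 123 members did (18.7%, 15.8 to 21.9). These genes encode a proteoglycan, a receptor of vascular mural cells and a pair of mitochondrial subunits of hypoxic tissue. The same limit was met by 98.2% and 99.6% of pericyte-like cells, by 4.93% and 3.36% of DMF-like cells and by 1.37% and 1.59% of alveolar fibroblast-like cells. The share was highest among members with few set A genes. The limit was met by 39.2% of 74 control and 57.7% of 78 *Gli1 HHIPCKO* members with exactly 4 set A genes, and by 3.80% of 842 and 6.24% of 417 members with 7 or more. Set A itself includes *Gucy1a1*, a subunit of the nitric oxide receptor, which stood at 4748 and 5799.6 CPM in pericyte-like and 631 and 986 CPM in ALMF-like cells.

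Genes of alveolar fibroblasts behaved in a like way. At least 2 UMIs over *Npnt*, *Limch1*, *Gyg*, *Ces1d* and *Tcf21* were found in 134 control (11.7%) and 170 *Gli1 HHIPCKO* members (25.8%). DMF-like cells reached 20.4% and 26.2%, and alveolar fibroblast-like cells 98.4% and 98.8%. Pericyte-like cells met the limit too, in 65.9% and 64.2%, so the limit does not set these cell types apart. Both signals were thus more frequent in *Gli1 HHIPCKO* members, and both bear on the comparison of the libraries, so several results below are also given without these cells. What the marked cells are was not tested.

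**Figure D2:**
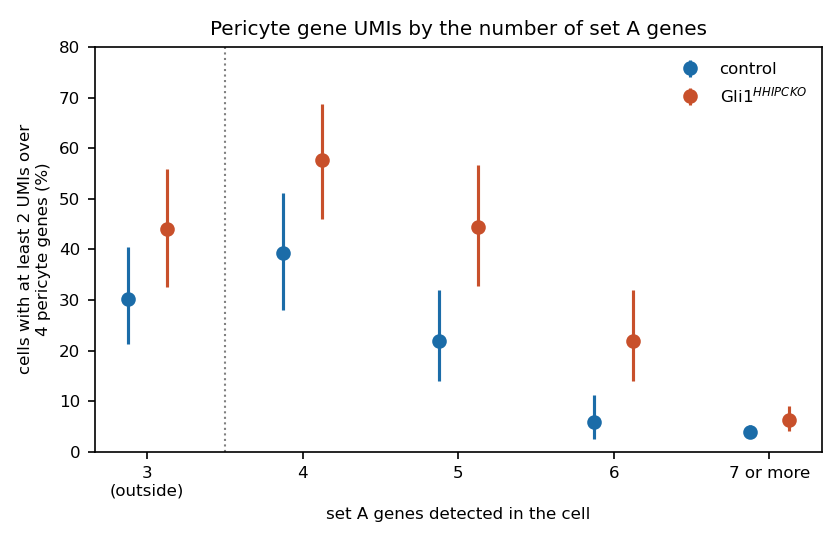
Percent of cells with at least 2 UMIs over 4 pericyte genes against the number of set A genes detected (3 lies just outside the rule, 4 and more inside), for the control and *Gli1 HHIPCKO* libraries, with exact 95% binomial intervals. The share was 39.2% and 57.7% at 4 set A genes and 3.80% and 6.24% at 7 or more.

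Just outside the threshold, 96 control and 75 *Gli1 HHIPCKO* cells met every other condition with 3 set A genes. Their medians of 1867.5 and 1357 UMIs lay between those of members with exactly 4 set A genes (1389.5 and 1201) and with 7 or more (3149 and 3353). *Pdgfra* was at 252 and 198 CPM just outside, 423 and 353 CPM just inside and 1224 and 1412 CPM at 7 or more. *Tgfbi* went from 226 and 331 to 808 and 511 and then to 2343 and 3262 CPM. Receptor and matrix gene were therefore lower outside than inside the rule, and higher still with 7 or more set A genes, in each library. *Mustn1* differed across the threshold in the control library, with 806 CPM outside and 3019 CPM inside, while the *Gli1 HHIPCKO* cells had 1045 and 871 CPM. *Postn*, a matrix protein that was high in pericyte-like cells (5524 and 6202 CPM), ran the other way among members, from 1779.8 and 2096 CPM at 4 set A genes to 93.05 and 168 CPM at 7 or more. Members with 7 or more were 73.7% of all in the control and 63.4% in the *Gli1 HHIPCKO* library. Set B genes were also common among members, since 576 control (50.4%) and 398 *Gli1 HHIPCKO* members (60.5%) had at least 4 of them.

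ALMF-like cells made up 14.7% of the 7761 control cells that passed the filters without *Epcam* or *Ptprc* (95% interval 13.9 to 15.5). In the *Gli1 HHIPCKO* library they made up 7.50% of 8775 such cells (6.96 to 8.07). The other stromal groups went the opposite way, with 12.03% and 14.9% DMF-like, 5.66% and 15.7% alveolar fibroblast-like and 3.56% and 5.22% pericyte-like cells. After the exclusion of cells with alveolar fibroblast, pericyte or muscle genes, members were 22.6% of 5059 control and 15.6% of 4208 *Gli1 HHIPCKO* cells. A further 121 control and 159 *Gli1 HHIPCKO* cells had as many set A as set B genes, at least 4 of each, and belong to neither group. The shares come from a rule on UMIs and from cells that were sorted and mixed, so fewer cells and less of the set A genes per cell cannot be told apart.

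Compared with DMF-like cells of the same library, ALMF-like cells had less of most collagens measured, and both groups had much elastin. Of 5860 genes measured (at least 50 UMIs, and found in 10% or more of either group), 98 were at least 2-fold higher in ALMF-like cells of both libraries (1.67%) and 113 at least 2-fold lower (1.93%). The rule used this contrast, so the values describe the groups and nothing is read from them. The median log2 ratio over all genes measured was 0.13 in the control and 0.09 in the *Gli1 HHIPCKO* library.

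The 15 genes highest in ALMF-like cells by the smaller of the pair of ratios were *Gap43*, *Gm28040*, *Nostrin*, *Lef1*, *Stc1*, *Card9*, *Fam162b*, *Gm15912*, *Trpc6*, *Gucy1b1*, *Ptges*, *Col24a1*, *Chst2*, *Tppp* and *Bmp2*. *Lef1*, a transcription factor of the WNT pathway, was at 90.2 and 54.2 CPM in ALMF-like and 4.11 and 4.42 CPM in DMF-like cells, log2 ratios of 4.46 and 3.62. *Ptges*, which makes prostaglandin E2, was at 178 and 196 CPM against 30.8 and 28.7 CPM. *Bmp2*, a secreted growth factor, was at 134 and 65.3 CPM against 27.1 and 15.5 CPM. Several of the 15 were higher still in pericyte-like cells. *Gucy1b1*, partner of *Gucy1a1* in the nitric oxide receptor, was at 233 and 447 CPM in ALMF-like and 2449.6 and 3045 CPM in pericyte-like cells, and *Trpc6*, a calcium channel, at 36.1 and 96.3 CPM and 748 and 659.5 CPM. *Stc1*, *Ptges* and *Bmp2* were higher in ALMF-like than in pericyte-like cells, where they stood at 37.3 and 15.96 CPM, 61.2 and 63.1 CPM and 54.6 and 35.7 CPM.

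Of the 15 genes lowest in ALMF-like cells, 14 were *Mpped2*, *Ak5*, *Scx*, *Ace*, *Ptgis*, *Col14a1*, *Adap1*, *Nat8f3*, *Dcn*, *Mfap5*, *Rbp4*, *Dpep1*, *Slit3* and *Col15a1*. *Scx*, a transcription factor of tendon, was at 8.05 and 7.26 CPM against 124 and 57.2 CPM. *Dcn*, a collagen-binding proteoglycan, was at 74.1 and 74.5 CPM against 411 and 444 CPM. *Ptgis*, which makes prostacyclin, was at 26.4 and 31.4 CPM against 292 and 227 CPM, so the ALMF-like cells had more of the prostaglandin E2 enzyme and less of the prostacyclin enzyme than DMF-like cells.

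By role, the collagens stood lower in ALMF-like cells, with a median log2 ratio of −1.12 and −0.70 over 15 of 24 genes measured, of which 9 and 5 were at least 2-fold lower. Of all 5860 genes measured 197 and 133 were so. *Col1a1* was at 1952 and 1784 CPM against 7141 and 5907 CPM. The basement membrane collagen *Col4a1* was the other way, at 1863 and 2179.6 CPM against 1436 and 1545 CPM. Elastic fibre genes had medians of −0.63 and −0.53 over 15 of 20 genes, and elastin itself (*Eln*) was at 14887 and 15654 CPM against 19142 and 22569 CPM. Genes of insulin-like growth factor (IGF) signalling had medians of −1.01 and −0.51 over 12 of 15, with none at least 2-fold higher and 6 and 4 lower. The other signalling lists went both ways. Medians were 0.36 and 0.35 over 18 of 30 WNT genes (4 and 4 higher, 2 and 1 lower) and −0.11 and −0.11 over 21 of 31 genes of transforming growth factor β (TGFβ) and bone morphogenetic protein (BMP) signalling (2 and 1 higher, 1 and 1 lower). The vasoactive and cyclic GMP genes had 0.69 and 0.31 over 17 of 28 (6 and 4 higher, 4 and 3 lower). With 4 to 6 genes measured, the medians were 0.43 and 0.81 for the PDGF list, −0.05 and 0.16 for the FGF list and 0.07 and −0.15 for the hedgehog list. Of all genes measured 173 and 144 were at least 2-fold higher. Transcription factors of lung mesenchyme had medians of 0.57 and 0.38 over 23 of 30, but did not move as one. Of them 16 and 17 lay above 0 (69.6% and 73.9%, against 67.6% and 64.0% of all genes measured), with 5 and 2 at least 2-fold higher and 4 and 3 lower. Among those higher in ALMF-like cells was *Tbx4*, which acts in lung bud outgrowth, with 557 and 637 CPM against 295 and 337 CPM. Of 24 contractile genes 21 were measured, with 15 above 0 in the control (71.4%, against 67.6% of all genes) and 9 in the *Gli1 HHIPCKO* library (42.9%, against 64.0%). Their medians were 0.21 and −0.09, with 2 and 1 at least 2-fold higher and 1 and 1 lower. Smooth muscle actin (*Acta2*) was at 908 CPM in ALMF-like and 650.2 CPM in DMF-like cells of the control, and at 751 and 1267 CPM in the *Gli1 HHIPCKO* library.

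Between the libraries, *Hhip* was lower and *Igf1*, *Itga8*, *Adh1* and *Fkbp5* were higher in *Gli1 HHIPCKO* ALMF-like cells. *Pdgfra* and elastin summed over all members differed little, and most contractile genes measured were somewhat lower. *Hhip*, the floxed gene (ENSMUSG00000064325, 79965851 to 80058006 on chromosome 8 of GRCm38), had 1270 UMIs in control and 278 UMIs in *Gli1 HHIPCKO* members, 353 CPM in the control and 134 CPM in the *Gli1 HHIPCKO* library. The log2 ratio was −1.39 (−1.58 to −1.20). In DMF-like cells, where the control level was higher, it stood at 1854 and 297 CPM (−2.64, −2.74 to −2.55). AT2-like cells also had less of it in the *Gli1 HHIPCKO* library, 56.8 and 16.7 CPM. The files do not say where the sequenced end of a transcript lies relative to the deleted part of *Hhip*, and the sample labels and the methods differ on whether the kit reads 3′ or 5′ ends. The remaining UMIs therefore do not tell undeleted cells from transcripts of a deleted allele.

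The hedgehog genes measured in ALMF-like cells did not move as one. The receptor *Ptch1*, itself a target of the pathway, was at 74.4 CPM in the control and 122 CPM in the *Gli1 HHIPCKO* library (0.71, 0.46 to 0.97). The target *Gli1*, too low to be counted among the genes measured, had 21 and 31 UMIs, a log2 ratio of 1.36 (0.52 to 2.24). Both targets were thus higher in *Gli1 HHIPCKO* members. The repressor-forming factor *Gli3* was at 72.5 and 41.6 CPM (−0.80) and the ligand co-receptor *Gas1* at 333 and 212 CPM (−0.65), both lower, and the transducer *Smo* at 57.2 and 46.9 CPM (−0.29). In all 6 of 12 genes were measured, and the median was −0.47. *Hhip* alone passed 2-fold, and it was lower, as were 0.661% of all genes measured. In DMF-like cells *Ptch1* was at 47.0 and 115 CPM and *Gli1* had 29 and 121 UMIs.

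Of 5601 genes measured in ALMF-like cells, 105 were at least 2-fold higher in the *Gli1 HHIPCKO* library (1.87%) and 37 at least 2-fold lower (0.661%). The median log2 ratio over all of them was −0.00. In DMF-like cells of the same mice 78 and 35 of these genes passed the same limits. The counts include sex-linked genes, which the rankings leave out: *Xist* is among the higher and *Eif2s3y* among the lower genes in ALMF-like cells. Of the 15 genes with the largest ratios, from 2.95 to 1.76, 14 were *Itga8*, *Adh1*, *Ednrb*, *Il6ra*, *Schip1*, *Enho*, *Fkbp5*, *Ngb*, *Igf1*, *Sorl1*, *Hist1h1c*, *Npnt*, *Rgcc* and *Tgm2*. The 15 with the smallest were *Notum*, *Hic1*, *Stc1*, *Igfbp3*, *Hilpda*, *Hsd17b7*, *Ccnd2*, *Rgs16*, *Tent5a*, *Plk2*, *Hhip*, *Palmd*, *Snai2*, *Tppp* and *Hs3st1*, from −1.93 to −1.28.

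Among the highest, *Itga8* encodes the integrin subunit that binds nephronectin (ENSMUSG00000026768, 12106632 to 12301922 on chromosome 2 of GRCm38) and was at 11.1 CPM in the control and 85.6 CPM in the *Gli1 HHIPCKO* library (2.95, 2.44 to 3.48). Its ligand *Npnt* was at 47.2 and 174 CPM (1.88, 1.61 to 2.15). *Adh1*, an alcohol dehydrogenase that also oxidizes retinol, was at 12.8 and 92.9 CPM (2.86, 2.39 to 3.36). All 3 are on the list of alveolar fibroblast markers and high in alveolar fibroblast-like cells, with 1087 and 1563 CPM of *Itga8*, 3742 and 4348 CPM of *Npnt* and 436 and 542 CPM of *Adh1*. Without the members that carry alveolar fibroblast genes, which were chosen by *Npnt* among others, the ratios were 2.17 for *Itga8*, 3.28 for *Adh1* and 1.57 for *Npnt*. *Itga8* and *Adh1* therefore stayed above 2-fold in the remaining 1009 and 488 cells. The value of *Npnt* depends on the choice of the members left out, so nothing is read from it.

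*Igf1*, a growth factor that mesenchyme releases (ENSMUSG00000020053, 87858265 to 87937042 on chromosome 10 of GRCm38), was at 109.9 CPM in the control and 501 CPM in the *Gli1 HHIPCKO* library (2.19, 2.02 to 2.36). *Ednrb*, a receptor for endothelins, was at 9.72 and 54.2 CPM (2.48, 1.92 to 3.07). *Il6ra*, the interleukin 6 receptor, was at 20.5 and 102 CPM (2.31). *Ngb*, an oxygen-binding globin best known from neurons, was at 12.5 and 57.1 CPM (2.19). These 4 genes were higher in DMF-like cells of the *Gli1 HHIPCKO* library too, with log2 ratios of 1.63, 1.02, 1.47 and 2.89 from the same mice. Some of the 15 were also higher in the epithelium. *Rgcc*, a cell cycle regulator, was at 37.5 and 128 CPM in ALMF-like and 252 and 988 CPM in AT2-like cells, and the linker histone *Hist1h1c* at 25.3 and 99.2 CPM and 14.7 and 49.5 CPM.

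Among the lowest, *Notum*, a secreted enzyme that inactivates WNT ligands, was at 119.9 CPM in the control and 31.4 CPM in the *Gli1 HHIPCKO* library (−1.93, −2.33 to −1.55). *Stc1*, the gene that set ALMF-like from DMF-like cells, was at 203 and 68.7 CPM (−1.56, −1.83 to −1.30). *Igfbp3*, which binds IGFs outside the cell, was at 349 and 121 CPM (−1.52, −1.73 to −1.33), so ligand and binding protein went opposite ways. *Hic1*, a transcriptional repressor, was at 109.7 and 35.3 CPM (−1.63) and *Snai2*, a repressor of epithelial genes, at 71.6 and 27.6 CPM (−1.38). *Ccnd2*, a cyclin of the G1 phase, was at 63.6 and 23.2 CPM (−1.45) in ALMF-like but at 23.3 and 24.1 CPM in DMF-like cells. *Rgs16*, which shortens G protein signals, was likewise lower in ALMF-like cells, at 51.6 and 18.9 CPM (−1.45), with 29.5 and 31.2 CPM in DMF-like cells. Whether the ratios of the groups differ was not tested.

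**Figure D3:**
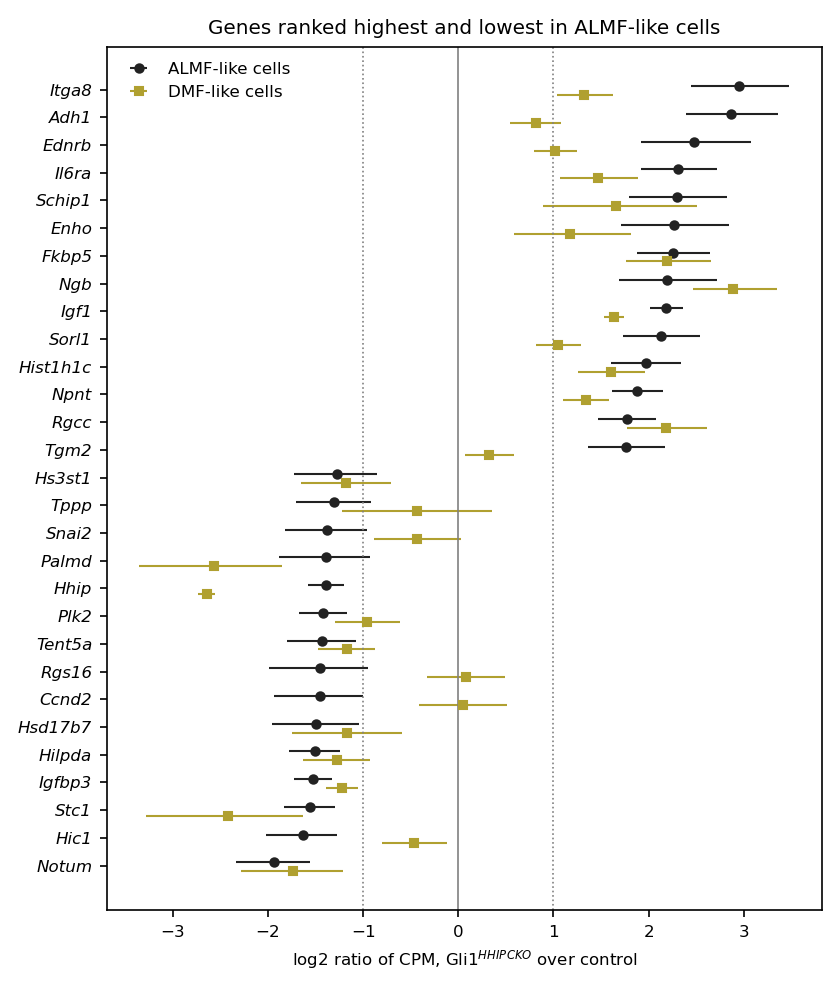
Log2 ratio of CPM, *Gli1 HHIPCKO* over control, of 14 of the 15 genes at the upper end and the 15 at the lower end of the ranking in ALMF-like cells, shown for ALMF-like and DMF-like cells of the same mice with exact 95% intervals; dotted lines mark 2-fold. Ratios in ALMF-like cells ran from 2.95 (*Itga8*) to −1.93 (*Notum*).

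Most genes measured of the contractile list were somewhat lower in the *Gli1 HHIPCKO* library, none of them by 2-fold. Of 24 contractile genes 19 were measured, with 6 above 0 (31.6%, against 49.9% of all genes) and a median log2 ratio of −0.14. All 24 summed to 13722 and 11287 CPM (−0.28, −0.30 to −0.26), with *Mustn1* the most abundant at 3773 and 2252 CPM (−0.74). *Acta2* was at 908 CPM in the control and 751 CPM in the *Gli1 HHIPCKO* library (−0.27, −0.36 to −0.19), and *Tagln*, an actin-binding protein, at 1220.2 and 1114 CPM (−0.13, −0.20 to −0.06). The smooth muscle myosin *Myh11* went the other way, at 159 and 208 CPM (0.38, 0.20 to 0.56). In DMF-like cells of the same mice the 3 genes had log2 ratios of 0.96, 0.95 and 1.16. *Mustn1* gave much of the lower sum in ALMF-like cells, and it was lower in DMF-like cells too. The *Acta2* ratio was not even among members. It was −0.83 with 4 set A genes, 0.16 (−0.11 to 0.43) with 6 and −0.28 with 7 or more. *Tagln* was at −0.08 (−0.16 to 0.0009) with 7 or more, an interval that included no difference. The 10 core myofibroblast genes had a median of −0.20, with *Hhip* and *Stc1* at least 2-fold lower, as were 0.661% of all genes measured. *Pdgfra* was at 0.11 (0.04 to 0.18) and *Tgfbi* at 0.34.

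Summed over all members, elastin was alike in the libraries, at 14887 CPM in the control and 15654 CPM in the *Gli1 HHIPCKO* library (0.07, 0.05 to 0.09). This sum joins opposite differences. Members with 4 set A genes had less *Eln* in the *Gli1 HHIPCKO* library (−0.86, −0.97 to −0.74), as did those with 5 (−0.55), and members with 7 or more had more (0.19, 0.17 to 0.21). Of 20 elastic fibre genes 14 were measured, with a median of 0.14 and 1 at least 2-fold higher, against 1.87% of all genes measured. That gene was *Ltbp1*, which anchors latent TGFβ in the matrix, at 16.4 and 54.2 CPM (1.73, 1.26 to 2.21). The microfibril protein *Mfap4* was at 361 and 693 CPM (0.94). Of 24 collagens 13 were measured, with a median of 0.23 and 1 at least 2-fold higher, against the same 1.87% of all genes measured. This was the membrane collagen *Col23a1*, at 14.2 and 43.0 CPM (1.60, 1.09 to 2.13). It was at 0.93 when the rule was applied to cells thinned to 2000 UMIs. Summed over all 24, collagens went the other way, at 20283 and 18823 CPM. The chains of collagen VI were higher together, *Col6a1* at 0.48, *Col6a2* at 0.61 and *Col6a3* at 0.32, while *Col3a1*, a fibrillar collagen, was at 9977 and 7276 CPM (−0.46).

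Growth factor pathways had medians near that of all genes, and several of their genes past 2-fold lay close to that limit. In the PDGF list 4 of 7 genes were measured (median 0.12, but −0.43 without the members that carry pericyte genes and −0.11 with at least 7 set A genes, 3 genes measured in each), with the receptor-like *Pdgfrl* lower, at 337 and 158 CPM (−1.09). The WNT list had 16 of 30 measured and a median of −0.04. Besides *Notum*, *Lgr6*, a receptor that enhances WNT signals, passed 2-fold, at 30.8 and 69.7 CPM (1.18), so 1 gene was lower and 1 higher, against 0.661% and 1.87% of all genes measured. The WNT target *Axin2* had 216 and 102 UMIs (−0.28, −0.64 to 0.06), so its interval included no difference. *Lef1* was lower (−0.74, −1.06 to −0.42). Of the TGFβ and BMP genes 21 of 31 were measured (median 0.03), and *Bmp2* passed 2-fold, at 134 and 65.3 CPM (−1.04). The BMP target *Id3* was lower as well, at 909 and 492 CPM (−0.89). In the FGF list 6 of 17 were measured (median 0.10), and the receptor *Fgfr2* was at 34.4 and 69.7 CPM (1.02). With the 7 label markers in place of set A, *Pdgfrl* was at −0.90, *Bmp2* at −0.67 and *Fgfr2* at 0.49, and *Lgr6* stood just under 2-fold (0.997) as the mean over cells.

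Receptors and enzymes of vasoactive and cyclic GMP signalling had 15 of 28 genes measured and a median of 0.14. Of the 15, 9 lay above 0 (60%, against 49.9% of all genes). At least 2-fold higher were 2, against 1.87% of all genes measured. Besides *Ednrb* this was *Entpd1*, which breaks down extracellular ATP, at 206 CPM in the control and 623 CPM in the *Gli1 HHIPCKO* library (1.59, 1.46 to 1.73). The nitric oxide receptor subunit *Gucy1b1* was at 233 and 447 CPM (0.94), but at −0.07 without the members that carry pericyte genes. Guidance and adhesion genes had 20 of 37 measured, 15 above 0 (75%, against the same 49.9% of all genes) and a median of 0.25. Of the 20, *Itga8*, *Npnt* and the cadherin *Cdh4* (26.7 and 64.8 CPM, 1.28) were at least 2-fold higher, against the same 1.87% of all genes. Without the members that carry alveolar fibroblast genes *Cdh4* was at 0.96. *Cdh4* and *Lgr6* are also markers of DMF-like cells that the rule did not use, which had 101 and 169.6 CPM of *Cdh4* and 105 and 218 CPM of *Lgr6*. While both were higher in *Gli1 HHIPCKO* members, *Hhip*, a further such marker, was lower. *Itga1*, a collagen-binding integrin subunit, was at 0.84 in all members and at 0.01 without the members that carry pericyte genes. Of the transcription factors of lung mesenchyme 21 of 30 were measured, with a median of 0.07 and *Tcf21*, a factor of lipid-storing fibroblasts, past 2-fold at 40.3 and 88.0 CPM (1.13). *Tcf21* is among the genes that marked the alveolar fibroblast signal, and without those members it was at −0.31.

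The IGF list had 9 of 15 genes measured and a median of 0.12. *Igf1* was at least 2-fold higher and *Igfbp3* at least 2-fold lower, against 1.87% and 0.661% of all genes measured. The receptor *Igf1r* was at 28.3 and 54.7 CPM (0.95, 0.55 to 1.35). Among inhibitors of cyclin-dependent kinases 5 of 7 were measured (median 0.14). *Cdkn1a*, which halts the cell cycle after damage and on differentiation, was at 95.8 and 295 CPM (1.62, 1.43 to 1.82), and it was also higher in AT2-like cells, at 74.8 and 205 CPM. *Cdkn2c*, another such inhibitor, was at 202 and 119 CPM (−0.76). Proliferation genes were scarce in both libraries: 4 of 20 were measured (median 0.17, none past 2-fold), and the mitotic *Mki67* had 92 and 38 UMIs. Summed over all 20 they were the other way, at 881 and 785 CPM (−0.17, −0.25 to −0.08).

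Apart from markers of other cell types, the lists with medians furthest from that of all genes respond to stress and to glucocorticoids. Of 25 immediate early genes 20 were measured, 17 lay above 0, and the median log2 ratio was 0.65. Over all genes measured 2797 of 5601 (49.9%) lay above 0, with a median of −0.00. *Jun*, an AP-1 subunit, was at 1205 CPM in the control and 1950.3 CPM in the *Gli1 HHIPCKO* library (0.70), and *Egr1*, a factor induced within minutes, at 499 and 901 CPM (0.85). Only *Cebpb*, at 262 and 682 CPM (1.38), passed 2-fold. Of 16 genes induced by glucocorticoids 13 were measured, 12 lay above 0 and 5 were at least 2-fold higher, with a median of 0.56, where 1.87% of all genes measured were at least 2-fold higher. *Fkbp5*, a co-chaperone of the glucocorticoid receptor, was at 22.2 and 106 CPM (2.25, 1.88 to 2.64). *Hsd11b1*, which makes active glucocorticoid, was at 52.5 and 163 CPM (1.64), and the metallothionein *Mt1* at 79.1 and 211 CPM (1.41). The kinase *Sgk1* was at 1.01 and the mTOR inhibitor *Ddit4* at 1.01, both close to the limit of 2-fold, and below it at 0.71 and 0.94 with the 7 label markers in place of set A. Both lists were also high in DMF-like cells of the same mice, with medians of 0.53 and 0.58. Their sums were higher in the *Gli1 HHIPCKO* library in AT2-like, alveolar fibroblast-like and pericyte-like cells as well. In that order, glucocorticoid-induced genes stood at 2468 and 4844, 3269 and 5072, and 4308 and 5607 CPM. Immediate early genes stood at 7173 and 10488, 6783 and 7040, and 4428 and 6143 CPM. Of 14 hypoxia genes 5 were measured, with 1 above 0 and a median of −0.40, and of −0.15 for the same genes in DMF-like cells. Only *Hilpda* was at least 2-fold lower, as were 0.661% of all genes measured. This lipid droplet protein was at 192 and 67.7 CPM (log2 ratio −1.504, −1.78 to −1.24) and *Vegfa*, the endothelial growth factor, at 118 and 82.2 CPM (−0.52, −0.78 to −0.26).

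**Figure D4:**
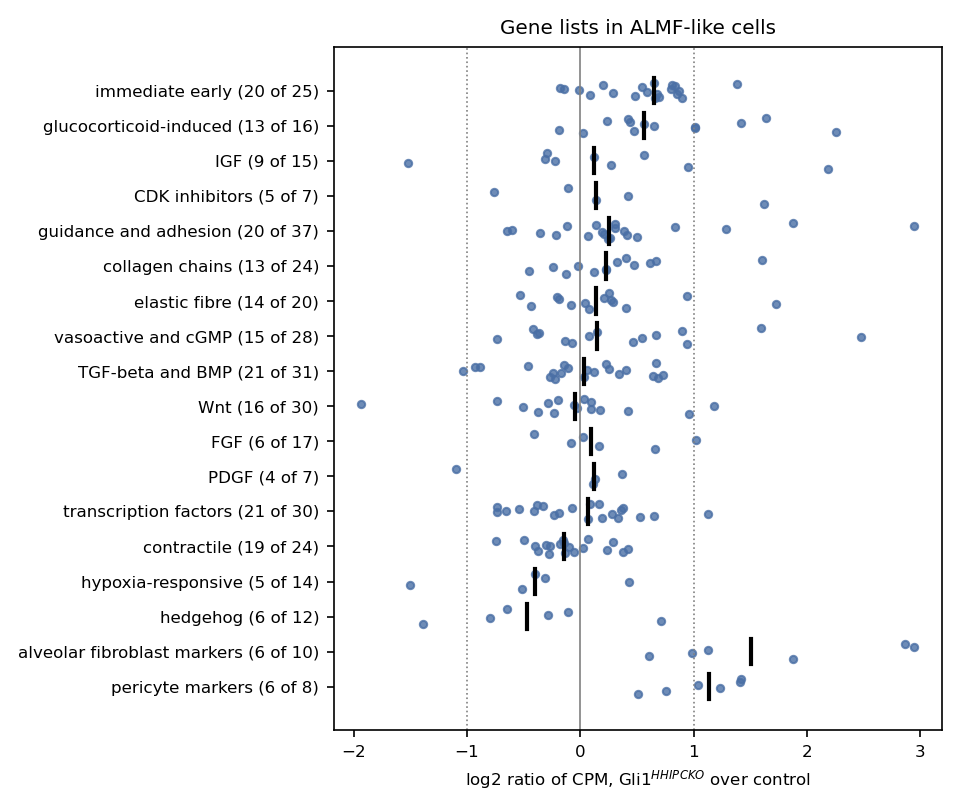
Log2 ratio of CPM, *Gli1 HHIPCKO* over control, in ALMF-like cells (x axis) for each gene measured of 18 gene lists (points, with the number measured), with the median of the list (bar) and over all genes measured (grey line); dotted lines mark 2-fold. Immediate early and glucocorticoid-induced genes had medians of 0.65 and 0.56.

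Markers of other cell types moved with these results. All 8 pericyte markers had UMIs in members of both libraries and summed to 1208 CPM in the control and 2262 CPM in the *Gli1 HHIPCKO* library, a log2 ratio of 0.91. The most abundant was the set A gene *Gucy1a1*, at 631 and 986 CPM, and the 7 others, which the rule did not use, summed to 577 and 1276 CPM (1.15, 1.06 to 1.23). The sum of all 8 was 616 and 513 CPM in DMF-like, 17165 and 18308 CPM in pericyte-like and 171 and 215 CPM in AT2-like cells. Of these markers 6 were measured, with a median of 1.13 and 4 at least 2-fold higher (*Postn*, *Trpc6*, *Cox4i2* and *Ndufa4l2*), against 1.87% of all genes measured. *Postn* was at 243 and 648 CPM (1.41) and at −0.25 without the members that carry pericyte genes. *Trpc6* was at 36.1 and 96.3 CPM (1.42) and at 1.24 without them, and *Pdgfrb*, the receptor of mural cells, at 0.13 and −0.43. Of the 105 genes at least 2-fold higher, 83 remained so in the 1054 and 535 other members, and 32 of the 37 lower ones did. *Igf1* was at 2.25, *Itga8* at 3.40 and *Fkbp5* at 2.29 in those cells.

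All 10 alveolar fibroblast markers had UMIs in members of both libraries and summed to 237 and 646 CPM, a log2 ratio of 1.45, with *Npnt* the most abundant. DMF-like cells had 512 and 798 CPM, AT2-like cells 534 and 874 CPM, and alveolar fibroblast-like cells 10177 and 11982 CPM. The control ALMF-like cells were thus the lowest of these groups. Of the markers 6 were measured, with a median of 1.504 and 4 at least 2-fold higher (*Itga8*, *Adh1*, *Npnt* and *Tcf21*), against the same 1.87%. Without the members that carry these genes, 75 of the 105 higher and 32 of the 37 lower genes remained past 2-fold.

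The 5 red cell genes were all present and summed to 4998 and 10083 CPM, with *Hbb-bs* the most abundant at 3736 and 7351 CPM, against 11223 and 13921 CPM in DMF-like cells. Of them 3 were measured (median 0.99), and *Hba-a1* was at least 2-fold higher (1.28), against 1.87% of all genes measured. It did not pass 2-fold without the members that carry alveolar fibroblast genes (0.63). The 10 AT2 genes were all present at 25777 and 20918 CPM, of which *Sftpc* gave 21543 and 16363 CPM, against 340761 and 313622 CPM in AT2-like cells. AT2 genes thus made up 2.58% and 2.09% of the members' UMIs, although each member lacks *Epcam*. Of these genes 6 were measured (median 0.01). Mitochondrial genes, with 9 of 10 measured, had a median of 0.19, and DMF-like cells one of 0.47.

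Markers of the remaining cell types gave few genes measured. The 8 endothelial markers summed to 35.8 and 22.3 CPM with *Plvap* and *Kdr* the most abundant, and *Cdh5*, *Emcn* and *Car4* were at 0 in the *Gli1 HHIPCKO* members. The 8 immune genes summed to 587 and 477 CPM, mostly *Cd74* (444 and 372 CPM), which AT2 cells also express, and *Fcer1g* was at 0 in the *Gli1 HHIPCKO* members. *Cd74* was the 1 immune gene measured (−0.26). The 8 smooth muscle genes were at 1621 and 1322 CPM, mostly the creatine kinase *Ckb* (1554 and 1197 CPM), and the 2 measured went opposite ways, *Ckb* at −0.38 and *Ngb* at 2.19. All 8 had UMIs in both libraries, with 11 and 5 UMIs of the muscle protein *Cnn1*. The 10 adventitial fibroblast genes were at 574 and 534 CPM, with *Clec3b* (126 CPM) and *Gpc3* (128 CPM) the most abundant and *Mfap5* the 1 measured (−0.53). The 6 mesothelial genes stood at 145 and 169.8 CPM (*Msln* most abundant), the 6 airway genes at 172 and 150.4 CPM (*Scgb1a1*, the 1 measured, at −0.13; *Foxj1* at 0 in the *Gli1 HHIPCKO* members) and the 5 AT1 genes at 101 and 83.2 CPM (*Ager*; *Rtkn2* at 0 in the control). The 4 Schwann cell genes had 6 and 2 UMIs in all, with *Sox10* at 0 in both libraries. The part of other cells' RNA in the differences between the libraries was not tested beyond the values without the marked members.

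Shares of cells with a UMI went the way of the sums for the genes given here at equal depth, except for *Acta2*. Each cell was thinned to 2000 UMIs, which left out 198 control (17.3%) and 158 *Gli1 HHIPCKO* members (24.0%) with fewer and kept 945 and 500. AT2-like cells, given beside them as an epithelial group, were thinned in the same way from medians of 5521 and 6292 UMIs, against 2924 and 2934.5 in members. *Igf1* was then found in 18.3% of control and 50.4% of *Gli1 HHIPCKO* members (23.5% and 52.0% before thinning), and in 1.65% and 6.75% of AT2-like cells. *Itga8* was found in 1.27% of control and 9.80% of *Gli1 HHIPCKO* members (3.15% and 13.4% before thinning), against 1.87% and 5.62% of AT2-like cells. *Adh1* was found in 1.69% of control and 12.8% of *Gli1 HHIPCKO* members (2.71% and 15.3% before thinning), against 1.69% and 3.03% of AT2-like cells. The control shares of both genes are thus at the level of the epithelium, and whether they are background was not tested. Control members with 4 set A genes had 70.6 CPM of *Itga8* and those with 7 or more 6.25 CPM. For *Adh1* the values were 39.2 and 10.8 CPM. The *Gli1 HHIPCKO* shares of both genes lie above those of AT2-like cells at 2000 UMIs per cell. Before thinning, *Itga8* was found in 11.1% of *Gli1 HHIPCKO* AT2-like cells (9.98 to 12.4), an interval that overlaps that of members (10.9 to 16.2). *Adh1* was then found in 8.11% of them (7.12 to 9.18), below the interval of members (12.7 to 18.3). The log2 ratios and ranks of both genes therefore rest on a low control level, with shares near or below those of AT2-like cells. *Npnt* was found in 5.82% of control and 18% of *Gli1 HHIPCKO* members (9.36% and 26.9% before thinning), against 13.0% and 19.8% of AT2-like cells. Neither share of members thus lay above that of AT2-like cells, and the part of other cells' RNA in the *Npnt* difference was not tested. *Fkbp5* was found in 4.34% of control and 20% of *Gli1 HHIPCKO* members (6.82% and 26.9% before thinning; AT2-like 0.477% and 3.14%). *Cdkn1a* was found in 13.1% of control and 36% of *Gli1 HHIPCKO* members (17.8% and 39.5% before thinning), but in 13.1% and 29.4% of AT2-like cells, which themselves can express this gene.

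In the other direction, *Stc1* was found in 26.9% of control and 9.6% of *Gli1 HHIPCKO* members (32.2% and 14.1% before thinning; AT2-like 1.48% and 0.292%). *Hhip* was found in 31.9% of control and 21.6% of *Gli1 HHIPCKO* members (37.4% and 25.5% before thinning; AT2-like 4.34% and 2.04%), and in 70.4% and 37.4% of DMF-like cells. *Hhip* was thus detected in a minority of ALMF-like cells of either library at this depth. *Pdgfra* was found in 78.6% of control and 81% of *Gli1 HHIPCKO* members (82.2% and 77.1% before thinning; AT2-like 5.86% and 6.28%). Most members of both libraries thus carried the marker. The order of the libraries turned where cells were thinned and those under 2000 UMIs left out, and the *Gli1 HHIPCKO* share was higher there than before, which the cells left out account for, as thinning can only lower a share. *Acta2* was found in 52.6% of control and 56.6% of *Gli1 HHIPCKO* members (58.6% and 59.6% before thinning; AT2-like 7.46% and 10.8%), so its share was slightly higher in the *Gli1 HHIPCKO* library while its sum was lower. *Cdkn2a*, an inhibitor of cyclin-dependent kinases used as a senescence marker, had 0 UMIs in all members, which at this depth does not show how many cells express it.

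The most variable genes among members of 1 library were largely the same in both libraries. The median variance over mean across thinned cells was 1.02 in the control and 1.02 in the *Gli1 HHIPCKO* library, over 6472 and 6575 genes with a mean of at least 0.05 UMIs, and 117 (1.81%) and 154 (2.34%) of these reached 2. Of the 15 most variable genes of each library 12 (80% of each list) were the same. Globin and AT2 genes led both lists, with a large part of their UMIs in few cells. The parts held by 10 cells are of 945 control and 500 *Gli1 HHIPCKO* thinned members, so they are not compared between the libraries. *Hbb-bs* had a variance over mean of 715 and 557, and 10 cells held 86.7% and 92.9% of its UMIs. *Sftpc* had 325 and 338, with 22.8% and 50.2% in 10 cells. The others shared were *Hbb-bt*, *Hba-a1*, *Hba-a2*, *Lyz2*, *Sftpa1*, *Lyz1*, the ribosomal RNA-like *Gm42418* and *AY036118*, *Col1a1* and *Eln*.

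The matrix genes among them were spread more widely. *Eln* was found in 99.3% and 96.6% of thinned members with a variance over mean of 14.3 and 16.4, and 10 cells held 4.45% and 7.20% of its UMIs. Members thus differed in the level of elastin rather than in whether a UMI was seen. *Col1a1* was found in 77.5% and 83.8% of them, with a variance over mean of 21.96 and 16.9. The genes on the control list alone were *Ccl6*, found in 0.423% of cells, the complement gene *C3* and *Col3a1*. Those on the *Gli1 HHIPCKO* list alone were *Lrg1*, *Chil1* and *Postn*, whose variance over mean was 17.5 in *Gli1 HHIPCKO* and 7.45 in control members, with 65.1% of its *Gli1 HHIPCKO* UMIs in 10 cells.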

How the data were processed

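The deposited files hold 1 droplet library from each of 2 mice, control (oil) and *Gli1 HHIPCKO* (tamoxifen). Per the methods, the labels and the file headers, the authors demultiplexed the reads, aligned them with STAR to mm10, and made counts of unique molecular identifiers (UMIs) per gene and cell with Cell Ranger, version 3.1.0 in the labels and 6.1.0 in the file header. The values as deposited are raw UMI counts of 32285 genes in called cells, not normalized. They were checked to be whole numbers, and 21254 and 21437 genes had a UMI. The labels and the methods name kits that read different transcript ends, and which was used is not known here.

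Cells were kept if they had 200 to 6000 genes and no more than 10% mitochondrial UMIs (10917 and 12115 cells). Of these, 7761 and 8775 had no UMI of *Epcam* or *Ptprc*. ALMF-like cells were chosen by the rule given in the report, and DMF-like, alveolar fibroblast-like, pericyte-like and AT2-like cells by rules of the same kind on other genes. They number 934 and 1310, 439 and 1381, 276 and 458, and 2350 and 2776 cells. Alveolar fibroblast-like cells had at most 3 genes of set A and of set B, and AT2-like cells no UMI of *Foxj1*. The members and gene lists were chosen with earlier results of these data known.

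The UMIs of a group's cells in a library were added up and divided by all UMIs of that group, as counts per 1000000 (CPM). Sums have exact 95% Poisson intervals, log2 ratios exact intervals from the pair of sums, and shares exact binomial intervals, all for counting error only. With 1 mouse per group no test was made. Genes measured were found in at least 10% of ALMF-like cells of either library with at least 50 UMIs in both together, without the genes of the rule. For the comparison with DMF-like cells the share applied to cells of either group. Named are the genes of the lists, the 15 at each end of each ranking and the 15 with the largest variance over mean per library, without mitochondrial and sex-linked genes in the rankings. From the rankings, 2 genes are left out of the text. The 36 lists cover the rule, the label, pathways, processes and markers of other cell types. A list is described by its median and its genes past 2-fold. The cells just outside the rule and members by number of set A genes were summed in the same way. For shares and variance over mean, each cell was thinned at random to 2000 UMIs. Gene coordinates are those of GENCODE vM21 on GRCm38.

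Alternatives were a set A minimum of 3 or 5, a margin of 2 over set B, the rule on thinned cells, at most 5% mitochondrial UMIs, the 7 label markers (at least 3) in place of set A, and members without the 5% with the most UMIs. Further ones were a total without mitochondrial, haemoglobin and surfactant genes, centring on the median, the mean over cells, and no minimum share of cells. Added after seeing the data were a set A minimum of 7 and members without at least 2 UMIs over pericyte genes or over alveolar fibroblast genes. The code was tested on simulated data. It ran under Python 3.11.15 with pandas 2.3.3 and numpy 2.4.6 for the tables, scipy 1.17.1 for the intervals and matplotlib 3.10.9 for the figures.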

Additional observations from a re-analysis of the deposited data

Results flagged for a closer look

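Some results went opposite ways in ALMF-like and DMF-like cells of the same mice, each with a counting interval clear of 0 and a size of at least 0.25 on the log2 scale. Only genes named in the text and the gene lists were compared in this way. The share of all genes measured that went opposite ways was not counted, so nothing is read from the number of such results. Whether they differ between the groups was not tested. *Acta2*, smooth muscle actin, had a log2 ratio *Gli1 HHIPCKO* over control of −0.27 among ALMF-like cells and 0.96 among DMF-like cells. The share of ALMF-like cells with an *Acta2* UMI went the other way from their sum, 52.6% in the control and 56.6% in the *Gli1 HHIPCKO* library at 2000 UMIs per cell (58.6% and 59.6% before thinning). The UDP-sugar receptor *P2ry14* was at −0.42 and 0.37. The collagen VI chain *Col6a1* was at 0.48 and −0.26, and the membrane collagen *Col23a1* at 1.60 and −0.87. *Notch3*, a gene of mural cells and one of those that mark the members with pericyte genes, was at 0.75 and −1.10, and at −1.28 in ALMF-like cells without those members. *Lyz1*, a lysozyme, was at −0.33 and 0.94. In ALMF-like cells it was at 0.15 with at least 3 set A genes and 0.74 with the rule on thinned cells, the direction of DMF-like cells, and 10 cells held 60.3% and 77.9% of its UMIs in thinned members.

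Medians of 5 lists, each at least 0.1 from 0, had opposite signs in the same way, and nothing is read from their number. The core myofibroblast genes had a median of −0.20 in ALMF-like cells and 0.39 for the same genes in DMF-like cells, and the contractile genes −0.14 and 0.23. The sum of the core genes was lower in the *Gli1 HHIPCKO* library in both groups. It stood at 10458 and 8902 CPM in ALMF-like and 9415 and 9128 CPM in DMF-like cells. Collagens had medians of 0.23 and −0.23, the PDGF list 0.12 and −0.57, and pericyte markers 1.13 and −0.14. Summed over all genes of the list, collagens were lower in the *Gli1 HHIPCKO* library in both groups. They stood at 20283 and 18823 CPM in ALMF-like and 44072 and 32365 CPM in DMF-like cells. The PDGF sum was lower in both too, at 1882 and 1842 CPM and at 995 and 883 CPM. Sums of the contractile and pericyte lists went opposite ways, as their medians did. The opposite sign of the PDGF median was lost without members that carry pericyte genes (−0.43 in ALMF-like cells) and with at least 7 set A genes (−0.11). The pericyte list gave no median without members that carry pericyte genes. There *Postn* was at −0.25 and *Trpc6* at 1.24. *Cspg4* was at −0.80, *Notch3* at −1.28, and *Cox4i2* and *Ndufa4l2* both at 0.11, but these genes chose the members left out. Their values depend on that choice, so no direction of the list is read from them.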

How the results depend on the processing

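The share of ALMF-like cells among cells that passed the filters without *Epcam* or *Ptprc* was higher in the control than in the *Gli1 HHIPCKO* library under each alternative, but its size moved with the rule. It was 16% and 8.35% with at least 3 set A genes, 13.8% and 6.61% with at least 5, 12.8% and 6.11% with a margin of 2 over set B, and 11.1% and 4.5% with the 7 label markers. With the rule on thinned cells the control share was 16.7% and the *Gli1 HHIPCKO* share 7.52%. Of the alternatives chosen after seeing the data, the shares were 10.8% and 4.75% with at least 7 set A genes, 13.6% and 6.1% without members that carry pericyte genes, and 13% and 5.56% without those that carry alveolar fibroblast genes. The cause was not tested.

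Without a minimum share of cells, 238 genes were at least 2-fold higher and 130 lower, of 9576, since more genes of few UMIs were counted. Under the other alternatives 88 to 125 genes were higher and 34 to 54 lower. *Hhip* was lower in the *Gli1 HHIPCKO* library under each alternative, by a log2 ratio of −1.02 with the 7 label markers, −1.14 with at least 7 set A genes, and −1.48 to −1.23 under the others. The 14 genes named among the 15 with the largest ratios were at least 2-fold higher under each of 13 alternatives. For *Npnt* these include the alternative without members that carry alveolar fibroblast genes, which it helped to choose. Of the 15 with the smallest, 14 were at least 2-fold lower under each, and *Tppp* was at −0.81 with the label markers.

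Of 105 genes named besides *Hhip*, 96 had an interval clear of 0, and 15 of these changed sign under some alternative, in 32 values. Of the lists with a median at least 0.1 from 0, 4 did so, in 6 values. The cause was not tested. With the rule on thinned cells these were *Tagln* (0.022), *Eln* (−0.033), *Sftpc* (0.14), *Cd74* (0.30) and *Lyz1* (0.74). With at least 3 set A genes *Lyz1* was at 0.15, and with at least 5 *Sftpa1* was at −0.14 and *Lyz2* at −0.31. With a margin of 2 *Eln* was at −0.0023. With the label markers *Eln* was at −0.0076, *Col1a1* at 0.23, *Lyz2* at −0.041, the median of the elastic fibre list at −0.0076 and that of the IGF list at −0.076. Without the 5% of members with the most UMIs *Col1a1* was at 0.23, *Sftpa1* at −0.16, *Lyz2* at −0.12 and the proliferation list at −0.065. As the mean over cells *Col1a1* was at 0.036.

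Without members that carry pericyte genes, *Pdgfrb* was at −0.43, *Gucy1b1* at −0.073, *Postn* at −0.25, *Nostrin* at −0.59, *Lyz2* at −0.17 and the PDGF list at −0.43. *Cspg4* (−0.80) and *Notch3* (−1.28) mark the members left out, and the pericyte list gave no median there, with fewer than 2 genes measured, nor did the smooth muscle list with the label markers. Without members that carry alveolar fibroblast genes, *Col1a1* was at 0.17, *Tcf21*, which marks them, at −0.31, *Sftpa1* at −0.48, *Lyz2* at −0.33 and the proliferation list at −0.013. With at least 7 set A genes *Pdgfrb* was at −0.11, *Sftpa1* at −0.40, *Lyz2* at −0.74, *Cspg4* at −0.20, *Nostrin* at −0.095 and the PDGF list at −0.11.

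Other list medians kept their sign under each alternative that gave one: contractile genes −0.22 to −0.12, hedgehog −0.58 to −0.33, core myofibroblast genes −0.36 to −0.13, collagens 0.11 to 0.35, immediate early 0.47 to 0.72, glucocorticoid 0.55 to 0.64, hypoxia −0.48 to −0.35 and alveolar fibroblast genes 1.23 to 2.05. Medians within 0.1 of 0, those of the WNT, TGFβ and BMP, FGF (−0.05 to 0.29), lung mesenchyme and AT2 lists, took both signs. The AT2 median moved most of these, from −0.74 to 0.50, with the other sign under 7 of 13 alternatives. The median over all genes stayed within −0.02 to 0.02. Depth limits the genes with few UMIs: a gene without a UMI in members could stand at up to 0.833 CPM in the control and 1.45 CPM in the *Gli1 HHIPCKO* library.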
